A study of Danio rerio with 6 samples.

Results

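The kcnj1a genes of zebrafish are 6 neighbouring copies, kcnj1a.1 to kcnj1a.6, of the gene for the potassium channel ROMK. Every row of the deposited table whose name starts with kcnj1a, together with kcnj1b, was taken, which gave 7 of 32059 rows. The copies were chosen because kcnj1a.5 was already known from this table as a gene with far fewer reads in pax2a-high than in pax2a-low cells, so their levels in these groups are described here without a test. RNA was sequenced from cells labelled thyroid follicular cells, dissociated from zebrafish aged 5 months and sorted by brightness of the mKO2 reporter into 3 pax2a-high (mKO2-High) and 3 pax2a-low (mKO2-Low) libraries. All fish of both groups carried the transgene Tg(tg:nls-EGFP), in which the thyroglobulin promoter drives a nuclear EGFP, and the pax2a:mKO2-Knock-in, in which the reporter reads out the thyroid transcription factor gene pax2a. Whether the replicates were different animals, or pools of several, is not stated in the labels, and a p-value here measures only the spread between these libraries, which may be technical.

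Inward-rectifier potassium channels pass potassium more easily into than out of a cell, yet at resting voltages they let potassium leave and so set the membrane potential. In the mammalian kidney, ROMK, the product of KCNJ1, sits in the apical membrane of the distal nephron, where it secretes potassium and recycles it for the sodium-potassium-chloride cotransporter. In zebrafish, kcnj1a has been described in ionocytes, the mitochondria-rich cells of skin and gill that exchange ions with the water and are driven by the sodium-potassium pump.

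The pax2a-low libraries held 6053741 to 10932845 counts and the deeper pax2a-high libraries 18014891 to 35403210. Levels are given as CPM, counts per 1000000 of the library size after TMM scaling. The floor used for a gene without reads, 3 counts, stood for 0.234 to 0.578 CPM in a pax2a-low library and for 0.0842 to 0.183 CPM in a pax2a-high one. The gene behind the sort, pax2a, had 12, 10 and 2014 counts in pax2a-low replicates 1, 2 and 3. In the corresponding pax2a-high libraries it had 4969, 8521 and 20604. By pax2a, then, pax2a-low replicate 3 stood apart from the others of its group. Reads of the mKO2 reporter itself numbered 0, 6 and 0 in the pax2a-low and 74, 671 and 654 in the pax2a-high replicates. By these reads pax2a-low replicate 3 did not stand apart. Mitochondrially encoded rows took 24.1 to 49.0% of a pax2a-low library and 0.799 to 1.17% of a pax2a-high one. The defining thyroid marker tg, for thyroglobulin, was read in every library, at 0.398 to 3.80% of counts in the pax2a-low group and 15.3 to 24.0% in the other.

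The RefSeq gene table, which uses the later build GRCz12tu and is used here for order alone, places the 6 copies in an unbroken run on chromosome 18. They stand in the order kcnj1a.6, kcnj1a.5, kcnj1a.4, kcnj1a.3, kcnj1a.2 and kcnj1a.1, between fli1 and kcnj5, and kcnj1b lies apart on chromosome 10. In that table kcnj5, another inward rectifier, lies inside the long gene model of kcnj1a.1, and the non-coding RNA LOC101883877 overlaps all 6 copies. The strand setting of the counting and its treatment of reads that match several places are not given in the sources used here. Reads shared by similar copies could be split between them, which makes the value of a single copy less certain than the sum over copies. Reads of overlapping genes cannot be told apart without strand, and such reads could enter the sum as well as a single copy.

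Read over all 6 copies, kcnj1a was abundant in the pax2a-low and scarce in the pax2a-high libraries. The summed counts were 14319, 10044 and 26937 in pax2a-low replicates 1, 2 and 3, which is 2760, 1246 and 2099 CPM. In the pax2a-high libraries the sums were 135, 672 and 1355 counts, or 8.24, 34.0 and 38.0 CPM. The groups did not overlap, and the lowest pax2a-low library stood far above the highest pax2a-high one. The mean was 2035 ± 759 CPM in pax2a-low and 26.8 ± 16.2 CPM in pax2a-high cells (SD, n = 3 each), 76.0-fold lower in pax2a-high. In bulk libraries such as these, fewer cells of a type and less RNA per cell cannot be told apart.

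The copy kcnj1a.1 (ENSDARG00000091232) kept reads in every library. It had 1055, 1335 and 2513 counts in pax2a-low replicates 1, 2 and 3 (203, 166 and 196 CPM) and 131, 548 and 1329 counts in the pax2a-high ones (7.998, 27.7 and 37.3 CPM). The pax2a-low values of this copy lay close together, with a coefficient of variation of 10.6%, while the pax2a-high values spread 4.67-fold, with replicate 1 the lowest. Mean levels of kcnj1a.1 were 188 ± 19.97 CPM in pax2a-low and 24.3 ± 14.9 CPM in pax2a-high cells (SD, n = 3 each), 7.73-fold lower in pax2a-high, and 5.79-fold to 10.5-fold lower with any 1 library left out.

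The copies kcnj1a.3 to kcnj1a.6 were nearly without reads in pax2a-high cells. For kcnj1a.5 (ENSDARG00000089060) there were 2860, 2028 and 4630 counts in the pax2a-low replicates (551, 252 and 361 CPM) and 0 counts in all 3 pax2a-high libraries. With each pax2a-high library set to the floor of 3 counts, kcnj1a.5 was at least 2776-fold lower there by mean CPM, a bound from counting alone that leaves out the spread between libraries. A level under the floor would not have been detectable at this depth.

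For kcnj1a.3 (ENSDARG00000086248) the pax2a-low replicates had 4332, 2543 and 8121 counts (835, 316 and 633 CPM) and the pax2a-high ones 4, 0 and 1. The pooled ratio of pax2a-low to pax2a-high was 8252, with a 95% exact counting interval of 3535 to 25419. Without pax2a-high replicate 1, a single count was left in the pax2a-high libraries.

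For kcnj1a.4 (ENSDARG00000090635) the counts were 1505, 1491 and 2526 in pax2a-low (290, 185 and 197 CPM) and 0, 0 and 2 in pax2a-high replicates, with a pooled ratio of 7597 (95% exact counting interval 2102 to 62744). For kcnj1a.6 (ENSDARG00000088484) they were 2580, 2024 and 5694 in pax2a-low (497, 251 and 444 CPM) and 0, 0 and 19 in pax2a-high replicates, with a pooled ratio of 1491 (95% exact counting interval 954 to 2478). All reads of kcnj1a.4 and kcnj1a.6 in pax2a-high cells came from replicate 3, and without it both copies stood at 0 there. In each of the copies kcnj1a.3 to kcnj1a.6 the groups did not overlap, and pax2a-low replicate 2 had the lowest CPM of its group.

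The copy kcnj1a.2 (ENSDARG00000090866) lay between these patterns, through 1 library. It had 1987, 623 and 3453 counts in the pax2a-low replicates (383, 77.3 and 269 CPM) and 0, 124 and 4 counts in the pax2a-high ones (0, 6.27 and 0.112 CPM). Its level was 243 ± 155 CPM in pax2a-low and 2.13 ± 3.59 CPM in pax2a-high cells (SD, n = 3 each), 114-fold lower. Without pax2a-high replicate 2 it was 4329-fold lower, since that library held 124 of the 128 pax2a-high counts. The spread of kcnj1a.2 among pax2a-low libraries was also the widest of the 6 copies, with 4.96-fold between replicates 1 and 2.

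The paralogue kcnj1b (ENSDARG00000002666) had 0 counts in all 6 libraries, below the floors given above. All 6 copies were therefore lower in pax2a-high cells with no overlap between the groups, as were 8.11% of the 12524 genes tested across the table. Since the copies were chosen on this comparison, the count is not read further.

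**Figure D1:**
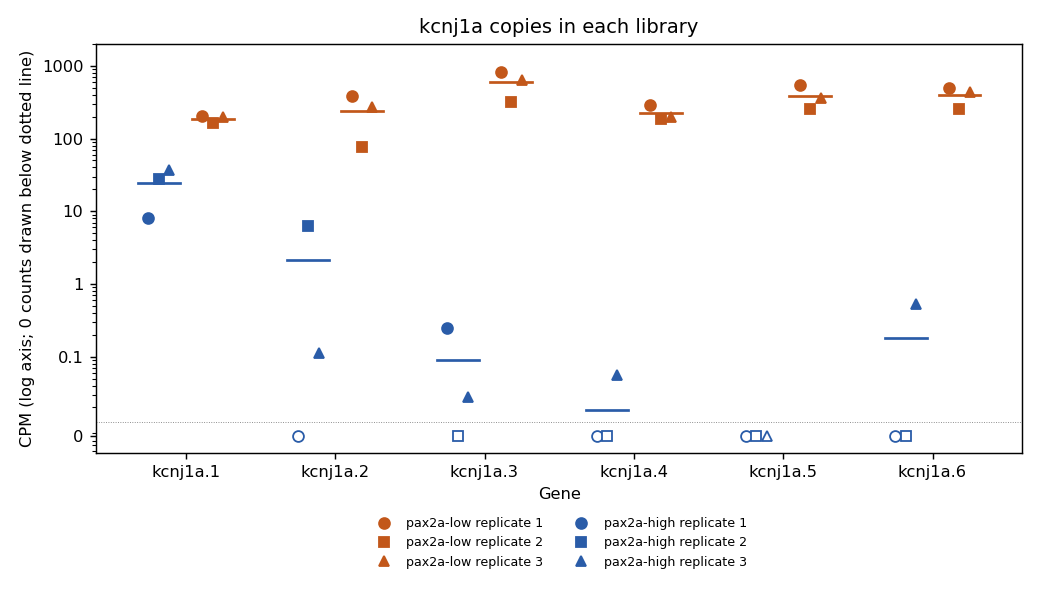
Level of each kcnj1a copy in CPM on a log axis, with orange for pax2a-low and blue for pax2a-high libraries, 1 symbol per replicate and a line at the group mean. Open symbols below the dotted line are libraries with 0 counts. The kcnj1a.1 values of pax2a-high cells stand at 7.998 to 37.3 CPM, while kcnj1a.5 has 0 counts in all 3 pax2a-high libraries.

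The make-up of the kcnj1a reads differed between the groups, as did their number. In pax2a-low replicates 1, 2 and 3, kcnj1a.1 held 7.37%, 13.3% and 9.33% of the summed counts (95% Wilson intervals 6.95 to 7.81%, 12.6 to 13.97% and 8.99 to 9.68%). In the pax2a-high replicates it held 97.0%, 81.5% and 98.1% (95% Wilson intervals 92.6 to 98.8%, 78.4 to 84.3% and 97.2 to 98.7%). The ranges lie far apart, so nearly all kcnj1a reads of pax2a-high cells belonged to this copy, apart from replicate 2, where kcnj1a.2 held 18.5%. Summed over kcnj1a.2 to kcnj1a.6, the pax2a-high replicates had 4, 124 and 26 counts against 13264, 8709 and 24424 in the pax2a-low ones, 765-fold lower by mean CPM and 3791-fold lower without pax2a-high replicate 2.

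Within the pax2a-low cells, the shares of kcnj1a.3, kcnj1a.5 and kcnj1a.6 in the kcnj1a reads varied least between libraries, relative to their means. Shares of the summed reads were 28.6 ± 2.82% for kcnj1a.3, 19.8 ± 1.59% for kcnj1a.6 and 19.1 ± 1.67% for kcnj1a.5 (SD, n = 3 each). They were 11.6 ± 2.89% for kcnj1a.4, 10.97 ± 4.16% for kcnj1a.2 and 9.996 ± 3.02% for kcnj1a.1 (SD, n = 3 each). The shares count reads and also depend on transcript length, which was not used here, so they give no order of expression between copies. As coefficients of variation over these 3 libraries, the share of kcnj1a.3 varied by 9.87% and its level by 44.1%, that of kcnj1a.5 by 8.76% and 39.1%, and that of kcnj1a.6 by 8.07% and 32.6%. For kcnj1a.1 it was the other way round, with 30.2% for the share and 10.6% for the level. Each copy is part of the sum it is divided by, so these contrasts can follow from the division and are not read as traits of the copies. In pax2a-low replicate 2, which had the lowest sum, kcnj1a.1 and kcnj1a.4 had their highest shares (13.3% and 14.8%) and kcnj1a.2 its lowest (6.20%).

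**Figure D2:**
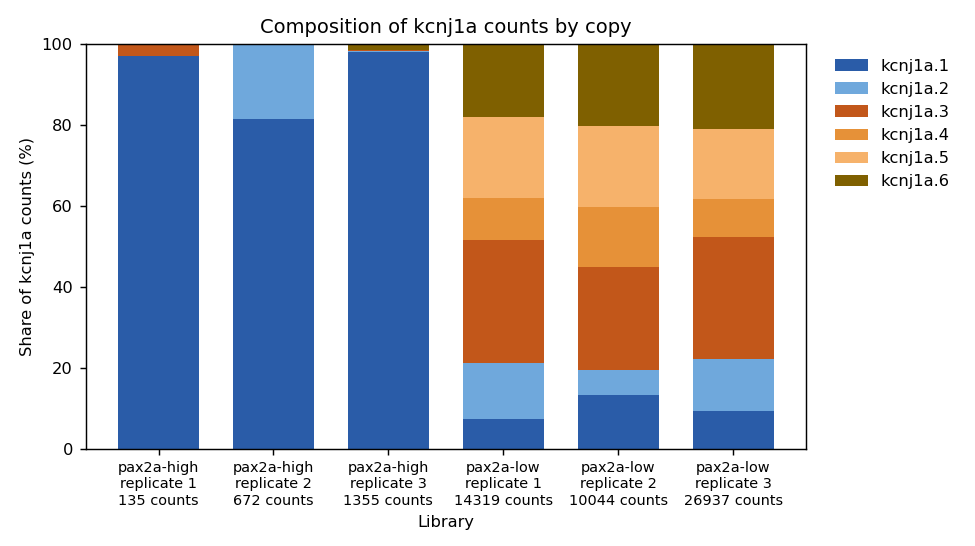
Share of the summed kcnj1a counts held by each copy, as stacked bars in percent, for the 3 pax2a-high and the 3 pax2a-low libraries, with the summed count under each bar. The kcnj1a.1 share is 81.5 to 98.1% in the pax2a-high and 7.37 to 13.3% in the pax2a-low bars.

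The copies fell into the same arrangement when whole profiles were compared. The distance used was the root mean square difference of log2(CPM + 0.5) over the 6 libraries, each copy centred on its own mean, so it is in log2 units. The 6 pairs among kcnj1a.3 to kcnj1a.6 were 0.29 to 0.68 apart. The 4 pairs that joined kcnj1a.2 to them were 1.53 to 1.88 apart, and the 5 pairs with kcnj1a.1 were 2.42 to 3.47 apart. These distances follow from the counts above and carry no test.

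Genes next to the copies on chromosome 18 were read at low levels. On the side of kcnj1a.6, ets1, an ETS transcription factor, had 0, 5 and 0 counts in the pax2a-low replicates against 150, 140 and 175 in the others. The gene fli1a, listed as fli1 in RefSeq and known from vessel endothelium, had 0, 214 and 21 against 446, 26 and 286. Beyond kcnj1a.1, kcnj5 had 2, 39 and 638 counts in the pax2a-low replicates against 18, 564 and 797 in the others. The sialyltransferase gene st3gal4 had 0 counts in all pax2a-low libraries and 0, 334 and 283 in the others. None of these 4 neighbours was abundant in pax2a-low cells in the way of the copies, and they were chosen for their position after the values of the copies were known.

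Since kcnj5 overlaps the kcnj1a.1 model in RefSeq, the counts of both are set side by side. In pax2a-high replicates 2 and 3 kcnj5 had 564 and 797 counts beside 548 and 1329 for kcnj1a.1, and in replicate 1 it had 18 beside 131. In pax2a-low replicates 1 and 2 kcnj5 had few reads (2 and 39) where kcnj1a.1 had 1055 and 1335, and in replicate 3 it had 638 beside 2513. Whether reads of one were counted for the other was not tested.

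Other inward rectifiers were read at low levels in both groups. Of 18 other kcnj rows, 14 had at least 1 count and 3 had enough reads to be tested, and 0 of these passed edgeR's quasi-likelihood test across all genes at a Benjamini-Hochberg adjusted p of 0.05. By that test 140 of the 12524 genes tested (1.12%) rose in pax2a-high cells and 183 (1.46%) fell, and at an unadjusted p under 0.05 there were 1222 and 576. The kcnj5 channel subunit, known from heart and adrenal cells of mammals, stood at 18.3 ± 27.3 CPM in the pax2a-low and 17.3 ± 14.4 CPM in the pax2a-high group (SD, n = 3 each; log2 fold change -0.08, SE 1.998, edgeR adjusted p = 0.997). That difference turned positive with limma, with a replicate block, and when either pax2a-low replicate 3 or pax2a-high replicate 1 was left out. The row ENSDARG00000089255, named kcnj11l, had 0, 4 and 0 counts in the pax2a-low replicates against 446, 88 and 594 in the others (log2 fold change 6.53, SE 3.02; edgeR adjusted p = 0.330). Of the alternatives run, it passed with DESeq2 alone (adjusted p = 0.019). Summed over the 18 rows, other kcnj genes stood at 12.7 to 51.0 CPM in a pax2a-low library and 53.4 to 69.4 CPM in a pax2a-high one, against 1246 to 2760 CPM for the copies in pax2a-low cells. These sums of CPM are not scaled to gene length.

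Of 87 potassium channel genes outside the kcnj family, including auxiliary subunits, 16 were tested. Of these 16, 1 rose in pax2a-high cells and 0 fell, beside 1.12% and 1.46% of all genes tested. Their median log2 fold change was 2.38, beside 0.35 over all genes tested. The gene that rose was kcnip1b, for a calcium-binding protein that modulates voltage-gated channels, with 0, 3 and 0 counts in the pax2a-low replicates against 1381, 1891 and 3061 in the others (log2 fold change 9.40, SE 1.71; edgeR adjusted p = 0.0056). Pooled over libraries that is a 767-fold ratio, with a 95% exact counting interval of 262 to 3721. Among those that did not pass, the leak channel gene kcnk2a stood at 6.99 ± 11.9 CPM in the pax2a-low and 168 ± 98.1 CPM in the pax2a-high group (SD, n = 3 each; edgeR adjusted p = 0.330). It passed without pax2a-low replicate 3 (edgeR adjusted p = 4.39e-06), without pax2a-high replicate 3 (0.0032), with no count filter (0.0011) and with a replicate block (8.84e-06). The calcium-activated channel gene kcnn4 stood at 2.73 ± 4.73 against 79.1 ± 46.6 CPM (SD, n = 3 each; edgeR adjusted p = 0.205). It passed without pax2a-low replicate 2 (edgeR adjusted p = 0.024), with no count filter (0.048) and with a replicate block (0.017). The values of kcnip1b, kcnk2a and kcnn4 were thus higher on average where those of the kcnj1a copies were lower, and of these 3 only kcnip1b passed the test over all genes.

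The genes whose products move ions beside ROMK were split. Of 17 listed pump, cotransporter and chloride channel genes, 16 were in the table and 9 were tested. Of these 9, 3 fell and 1 rose in pax2a-high cells, beside 1.46% and 1.12% of all genes tested. Their median log2 fold change was -2.60, beside 0.35 over all genes. The pump subunit gene atp1b1b fell from 2519 ± 367 to 0.112 ± 0.0105 CPM (SD, n = 3 each; log2 fold change -14.37, SE 0.60, edgeR adjusted p = 8.79e-10). Its counts were 12457, 17939 and 37603 in pax2a-low and 2, 2 and 4 in pax2a-high replicates. In the same pax2a-high libraries kcnj1a.1 had 131, 548 and 1329 counts, so kcnj1a.1 was read there where atp1b1b was nearly at 0. Not every ionocyte marker was so low there. The counts in pax2a-high replicates 1, 2 and 3 were 216, 200 and 1066 for slc4a4b and 4, 286 and 717 for atp6v1aa. For trpv6 they were 0, 0 and 201, and 8 of the 22 ionocyte markers listed below were at 0 throughout.

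Among the pump alpha subunit genes, atp1a1a.2 fell by 10.25 on the log2 scale (SE 1.41; edgeR adjusted p = 0.0145). The decrease of atp1a1a.3 was smaller (log2 fold change -6.47, SE 1.42; edgeR adjusted p = 0.042). Both calls were lost with limma (adjusted p of 0.086 and 0.131), and that of atp1a1a.2 also with no count filter (edgeR adjusted p = 0.126) and with a replicate block (edgeR adjusted p = 0.307). DESeq2 gave atp1a1a.3 no adjusted p, so that gene was not called there either. Without 1 library the atp1a1a.2 call was lost for pax2a-high replicate 3, pax2a-low replicate 1 and pax2a-low replicate 3 (edgeR adjusted p of 0.242, 0.149 and 0.141), and the atp1a1a.3 call for pax2a-high replicate 1 and each of the pax2a-low libraries (0.163, 0.116, 0.277 and 0.051). These genes, too, have similar neighbours between which reads could be split. The other beta subunit gene, atp1b1a, rose from 115 ± 96.1 to 1567 ± 201 CPM (SD, n = 3 each; log2 fold change 3.77, SE 0.58, edgeR adjusted p = 0.0011). Renal partners of ROMK had too few reads to be tested. The gene slc12a1, for the sodium-potassium-chloride cotransporter of the kidney, had 10 counts in pax2a-low replicate 3 and 0 elsewhere, and clcnk, for the renal chloride channel, had 24 counts in pax2a-low replicate 2 and 0 elsewhere. Its subunit gene bsnd had 42 and 176 counts in pax2a-high replicates 2 and 3 and 0 elsewhere, and slc12a3, for the sodium-chloride cotransporter, had 132 counts in pax2a-high replicate 3, 6 in pax2a-low replicate 2 and 0 elsewhere.

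Most regulators known from mammalian ROMK did not pass, and neither did 12201 of all 12524 genes tested. Of 39 listed kinases, adaptors, steroid receptors and lipid kinases, 34 were in the table and 30 were tested. Of these 30, 2 fell and 0 rose in pax2a-high cells, beside 1.46% and 1.12% of all genes tested. Their median log2 fold change was -0.46, beside 0.35 over all genes. The kinase gene sgk2a, a relative of the aldosterone-induced kinase that raises ROMK at the cell surface, had 1736, 716 and 3050 counts in pax2a-low and 0, 2 and 13 in pax2a-high replicates (log2 fold change -10.29, SE 1.25, edgeR adjusted p = 0.00011). Likewise the lipid kinase gene pip5k1ca, whose product makes the phosphoinositide that inward rectifiers need to open, had 944, 314 and 4352 counts in pax2a-low and 0 in all pax2a-high libraries, at least 1336-fold lower (edgeR adjusted p = 4.5e-05). This list was drawn up when pip5k1ca was already known to be among the genes that differed most. With 0 pax2a-high counts, pip5k1ca could pass the read filter only through its pax2a-low reads.

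The mineralocorticoid receptor gene nr3c2 was at 153 ± 32.4 CPM in pax2a-low and 20.4 ± 11.2 CPM in pax2a-high cells (SD, n = 3 each), and just missed the threshold (log2 fold change -2.91, SE 0.76, edgeR adjusted p = 0.056). Over the alternatives run, its adjusted p ranged from 0.016, without pax2a-low replicate 1, to 0.202, without pax2a-high replicate 2. It passed with limma (0.018) and with edgeR on DESeq2 size factors (0.040), and did not with DESeq2 (0.102). By contrast sgk1, the aldosterone-induced kinase gene itself, stood at 219 ± 57.6 CPM in the pax2a-low and 183 ± 49.3 CPM in the pax2a-high group (SD, n = 3 each; edgeR adjusted p = 0.942). The kinase gene wnk1b, of the family that withdraws ROMK from the membrane in mammals, stood at 104 ± 64.9 and 71.5 ± 18.6 CPM (SD, n = 3 each; edgeR adjusted p = 0.894).

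**Figure D3:**
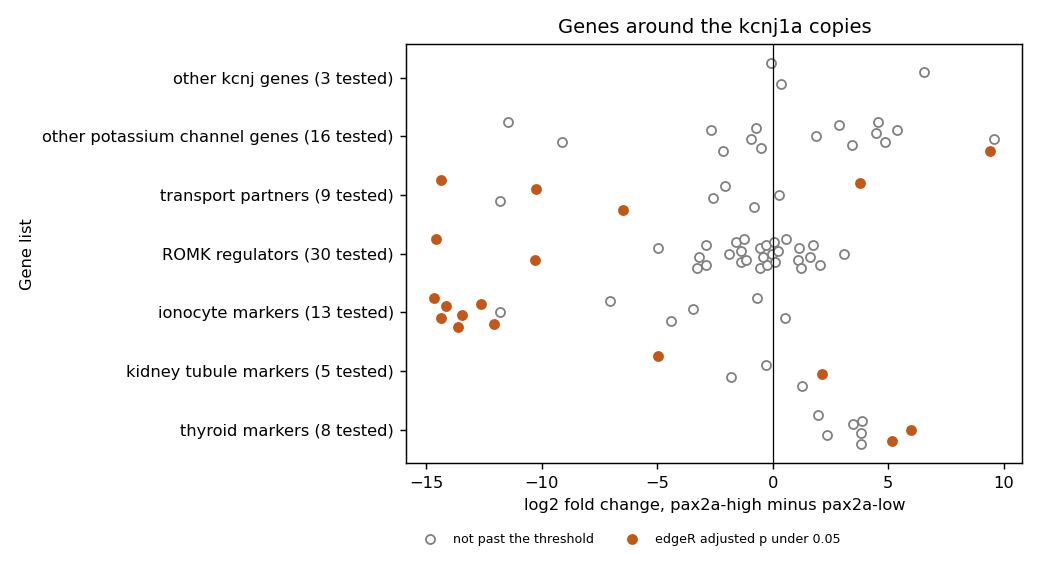
Log2 fold change of each tested gene, pax2a-high minus pax2a-low, by gene list, with filled orange symbols for genes with an edgeR adjusted p under 0.05 and open grey symbols for the others. The filled symbols of the ionocyte markers all lie below -12, and 2 of the 30 tested ROMK regulators are filled. For genes at 0 counts in all pax2a-high libraries the size of the fold change is not measured. The vertical offset within a list only separates the symbols.

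Most tested markers of ionocytes were lower in pax2a-high cells, as the kcnj1a copies were. Of 22 ionocyte markers 13 were tested, of which 7 fell and 0 rose in pax2a-high cells, beside 1.46% and 1.12% of all genes tested. Their median log2 fold change was -12.07, beside 0.35 over all genes. Among those that fell, rhcga, igfbp5a, rhbg and ca15a had 0 counts in all pax2a-high libraries. Such a gene can pass the read filter only through its pax2a-low reads. Its direction is then fixed by the filter and the size of its fold change is not measured, so count and median are description only. Past the threshold or not, 12 of the 13 had a negative log2 fold change, beside 5370 of all 12524 genes tested. The exception was slc26a5 (log2 fold change 0.52, SE 1.08, edgeR adjusted p = 0.945). Summed over the list, the markers stood at 3757 to 7576 CPM in pax2a-low and 82.2 to 123 CPM in pax2a-high libraries. Of the 22, 8 were at 0 in all pax2a-high libraries, among them foxi3a, rhcgb, rhbg and ca15a. In all pax2a-low libraries 2 were at 0, slc26a4 and slc26a3.2. The share of all genes at 0 was not computed, so these counts are not read further. The forkhead gene foxi3b, which directs the formation of ionocytes, had 1732, 3530 and 3311 counts in pax2a-low and 0, 0 and 4 in pax2a-high replicates (log2 fold change -12.62, SE 1.14, edgeR adjusted p = 4.34e-06). Both the ammonium transporter gene rhbg (at least 1402-fold lower) and the gene igfbp5a, for a growth-factor-binding protein of calcium-transporting ionocytes (at least 980-fold lower), were at 0 in pax2a-high cells. The part of these markers in the levels of the copies was not tested.

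Some markers of single ionocyte types were not spread over the pax2a-low libraries in the same way as the copies. The chloride cotransporter gene slc12a10.2, which marks one type of ionocyte, had 12, 16500 and 129 counts in pax2a-low replicates 1, 2 and 3, and the bicarbonate cotransporter gene slc4a4b of the same type had 2, 8926 and 30. Both were thus high in pax2a-low replicate 2 alone, the library with the lowest kcnj1a sum. The calcium channel gene trpv6, which marks another type, had 456, 3890 and 2266 counts. The counts of kcnj1a.2 to kcnj1a.6 for each count of atp1b1b were 1.06, 0.485 and 0.650 in the 3 pax2a-low replicates, and those of kcnj1a.1 for each 100 counts of atp1b1b were 8.47, 7.44 and 6.68. These ratios are within a library and so do not depend on scaling.

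Markers of kidney, the other organ in which ROMK is known, were read unevenly. Of 17 kidney markers 5 were tested, and 1 rose and 1 fell in pax2a-high cells, beside 1.12% and 1.46% of all genes tested. The median log2 fold change of the 5 was -0.28, beside 0.35 over all genes. Summed over the 17, the markers stood at 243 to 332 CPM in a pax2a-low library and 560 to 848 CPM in a pax2a-high one. The endocytic receptor gene lrp2a, which thyroid cells also express, stood at 500 to 785 CPM in the pax2a-high libraries and at 143, 82.1 and 223 CPM in pax2a-low replicates 1, 2 and 3.

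Of the 17 kidney markers, 6 were at 0 in all pax2a-high libraries and 5 in all pax2a-low ones. Both slc13a1 and slc13a3 were at 0 in all 6 libraries. The share of all genes at 0 was not computed for comparison. The tubule marker cdh17 had 80 counts in pax2a-high replicate 3 alone, which was also the only library of its group with slc12a3 reads (132 counts) and the one with the most kcnj1a.1 counts. That library was also the deepest, with 35403210 counts against 18014891 and 20392697 in pax2a-high replicates 1 and 2. In CPM, kcnj1a.1 stood at 37.3 there beside 7.998 and 27.7 in replicates 1 and 2. In pax2a-high replicates 1 and 2, where kcnj1a.1 had 131 and 548 counts, cdh17 and slc12a3 were at 0. Other markers of the list were read in those libraries, with 58 and 42 counts for the endocytic receptor gene cubn, 110 and 6 for the transporter gene slc5a12, 1041 and 1031 for the channel gene trpm7 and 34 and 0 for the transcription factor gene hnf1ba. The part of kidney markers in the levels of the copies was not tested.

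The genes that fell and rose among the kidney markers are not particular to that organ. A gene for a transcription factor of several tissues, gata3, fell by 4.98 on the log2 scale (SE 1.16; edgeR adjusted p = 0.030), while lrp2a rose (log2 fold change 2.15, SE 0.49; edgeR adjusted p = 0.026). Without 1 library the gata3 call was lost for each pax2a-high library and for pax2a-low replicate 2 (edgeR adjusted p of 0.060, 0.071, 0.056 and 0.170), and the lrp2a call for pax2a-high replicate 1 and pax2a-low replicate 2 (0.117 and 0.115).

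Thyroid markers stood the other way round from the copies. Of 12 thyroid markers 9 were in the table and 8 were tested. Of these 8, 2 rose and 0 fell in pax2a-high cells, beside 1.12% and 1.46% of all genes tested. Their median log2 fold change was 3.83, beside 0.35 over all genes. The 2 that rose were the iodide transporter gene slc5a5 and the deiodinase gene dio1. Both calls were lost with limma (adjusted p of 0.087 and 0.116). The dio1 call was also lost at the higher CPM filter (edgeR adjusted p = 0.058) and when replicate 1 or 3 of the pax2a-high group or replicate 2 of the pax2a-low group was left out (edgeR adjusted p of 0.062, 0.084 and 0.071). In pax2a-low replicate 3, which had the most tg (415881 counts, against 27470 and 28642 in replicates 1 and 2), the kcnj1a sum was 2099 CPM, between those of replicates 1 and 2. Reads of both kinds were held by all 3 pax2a-low libraries, since the kcnj1a sums of replicates 1 and 2 were 2760 and 1246 CPM.

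**Figure D4:**
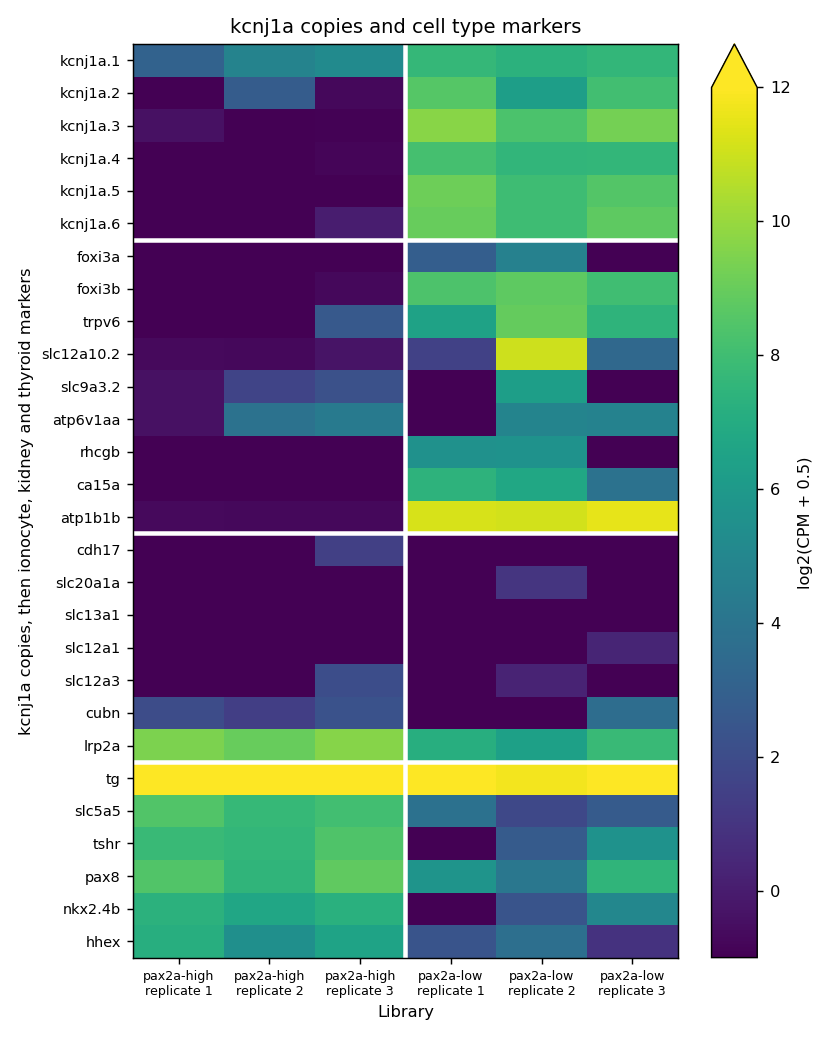
Levels as log2(CPM + 0.5) in each library, from dark (0 counts, at -1) to yellow (12 or more), for the 6 kcnj1a copies and, from the top below them, markers of ionocytes, kidney and thyroid follicular cells. The kcnj1a.1 row is lit in all 6 libraries, whereas atp1b1b and foxi3b, at 0 to 4 counts in pax2a-high cells, are lit in the pax2a-low libraries alone. Other ionocyte rows have pax2a-high reads, with 4, 286 and 717 counts for atp6v1aa and 0, 0 and 201 for trpv6 in replicates 1, 2 and 3.

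The genes closest in profile to the summed kcnj1a counts were found by the same distance among 8022 named genes with a mean of at least 5 CPM in pax2a-low cells. The 10 nearest were adam28, anxa1c, mt-cyb, fthl29, magi3b, pard3ba, mt-nd3, CABZ01052570.1, mt-atp6 and st6gal2a, 0.35 to 0.66 log2 units away. The nearest, adam28, a membrane protease gene, had 872, 740 and 2417 counts in pax2a-low and 0, 38 and 39 in pax2a-high replicates. Of the 10, 3 are mitochondrially encoded, among them mt-cyb with 29917 ± 19125 CPM (SD, n = 3) in pax2a-low cells, and magi3b and pard3ba encode scaffolds of cell junctions and polarity. Mitochondrial rows as a whole took 24.1 to 49.0% of pax2a-low and 0.799 to 1.17% of pax2a-high libraries. Their share among the 8022 candidates was not computed. The list of nearest genes changed with the pseudocount, as given at the end.

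For the sum without kcnj1a.1, a comparison added after the data were seen, the 10 nearest genes were others in all 10 places. They were atp1a1a.2, DST, pcdh1b, ppargc1a, adcy6b, adgrf6, dmrt2a, rgs5b, RIMS2 and foxi3b, 0.52 to 1.17 log2 units away. The pump subunit gene atp1a1a.2 was the nearest, with 4, 118 and 78 counts in pax2a-high replicates 1, 2 and 3 beside 4, 124 and 26 for the summed copies. The next, DST, for a cytoskeletal linker protein, had 2, 264 and 74 counts there, and pcdh1b, a protocadherin gene, had 2, 172 and 0. These 3 genes had most of their pax2a-high reads in replicate 2, as kcnj1a.2 did, while atp1b1b and foxi3b had 2 and 0 counts in the same library. The 3 were picked for nearness to a profile that peaks there among pax2a-high libraries. Their likeness to kcnj1a.2 is therefore favoured by the choice and is not a separate result. The gene ppargc1a encodes a coactivator of mitochondrial biogenesis, and adcy6b an adenylate cyclase.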

How the data were processed

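RNA of 6 sorted libraries was analysed. The deposited table gives raw counts of reads for each gene. Per the submitters' processing notes, HISAT2 was used on the build GRCz11 and featureCounts for the counting, over exons per the series' design text, with versions not given in the sources used here. Among nonzero counts 67.8 to 89.0% were even numbers. Reads are not separate molecules. Each interval or floor treats counts as independent and leaves out the spread between libraries. The many even numbers put that independence in doubt, so the intervals may be too narrow even for counting error.

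The titles gave the group and replicate of each library. Genes were tested with edgeR 4.0.16 (R 4.3.3): filterByExpr, TMM scaling, a robust quasi-likelihood fit with group as its only term, and adjustment by Benjamini-Hochberg over 12524 genes at 0.05, checked on simulated data. A positive log2 fold change is higher in pax2a-high cells, and its standard error comes from the quasi-likelihood statistic. Folds of the copies between groups are ratios of mean CPM, and a pooled ratio with its 95% exact interval is given where the pax2a-high libraries had few counts. Alternatives were DESeq2 size factors, unscaled library sizes, library sizes without the 37 mitochondrial rows, other count filters, DESeq2 1.42.0, limma 3.58.1 (voom with quality weights), a replicate block and leaving out each library.

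Candidates for naming were, from each list, genes past the threshold (at most 8) and up to 4 more with the highest mean CPM. Not all of these candidates are named in the text. Among those left out were the ionocyte marker slc8a1b, which was past the threshold, and kcnj2a, kcnk5b, kcnh1a, slc12a2, tshr and nkx2.4b. The 10 genes nearest in profile were named as well. Those named outside this rule, such as slc12a1, slc12a3, clcnk, bsnd, cdh17, slc13a1, slc13a3, hnf1ba and the neighbours on the chromosome, were chosen after their values were seen. The copies and lists were chosen with earlier results of these data known. Gene order came from RefSeq on GRCz12tu. Sequences and coding lengths of the copies were not used here.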

Additional observations from a re-analysis of the deposited data

How the results depend on the processing

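Levels of the copies moved by less than 1 SD under every scaling, with 1 exception. Library sizes without mitochondrial rows put kcnj1a.1 and kcnj1a.4 in pax2a-low cells at 244 and 292 CPM. Shares do not depend on scaling. With 1 of 3 libraries left out, a mean cannot move by 1 SD of the 3, so that comparison says nothing about stability. Without pax2a-high replicate 2, kcnj1a.2 in pax2a-high cells went from 2.13 to 0.0562 CPM. Shares per coding length were not run, for want of lengths. The median log2 fold change of all genes, 0.35 as reported, was 0.24 with DESeq2 size factors, 0.25 under a filter of 5 CPM in 3 libraries, 0.28 without mitochondrial rows, 0.57 with DESeq2, 0.92 with no count filter, 1.42 with a replicate block, 1.52 with limma and 0.20 to 1.33 with 1 library left out, the highest without pax2a-low replicate 2. List medians are read against 0.35 only for the fit as reported.

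Counts of called genes moved more, and the cause was not tested. Higher and lower genes over the table numbered 328 and 299 with no count filter, 961 and 500 with DESeq2 and 277 lower with limma, with 73 higher under a filter of 5 CPM in 3 libraries. With 1 library left out they ranged from 40 to 270 higher and 120 to 253 lower. Other potassium channel genes numbered 3 higher with no filter and with DESeq2, 3 lower with DESeq2 and 2 lower with limma, and 1 to 2 higher with 1 library left out. Among kcnj genes and among ROMK regulators, 1 was higher with DESeq2 (kcnj11l and ldlrap1b). Lower ROMK regulators numbered 4 with DESeq2 size factors (nr3c2 and nedd4a added) and with no filter (nr3c2 and stk39 added), and 2 to 4 with 1 library left out. Lower transport partners numbered 1 with limma and 1 to 3 with 1 library left out, and lower ionocyte markers 12 with DESeq2. Higher kidney markers fell to 0 under the 5 CPM filter, DESeq2 and limma and were 0 to 1 with 1 library left out, as were lower ones. Higher thyroid markers were 0 with limma and 1 to 6 with 1 library left out.

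The labels do not say that a replicate number pairs libraries, and same-numbered libraries deviated together only weakly (correlations 0.038, 0.048 and 0.057 over genes), although each correlated best with its own number. With the replicate block, 425 genes were higher, with 3 other potassium channel genes and 6 thyroid markers among them.

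Log2 fold changes that changed sign all belonged to genes past no threshold. With limma and with the replicate block they were 1.81 and 1.01 for kcnj5, 0.026 and 2.47 for slc4a4b, 3.24 and 5.03 for cubn and 1.11 and 3.81 for slc5a12, and with the block 0.093 for nedd4l. With 1 library left out they ranged from -0.64 to 2.68 for kcnj5, -0.21 to 2.94 for kcnj13, -0.15 to 0.62 for atp1a1a.1, -0.34 to 0.43 for nedd4l, -0.090 to 1.36 for slc26a5, -4.99 to 3.64 for slc4a4b, -0.91 to 8.83 for cubn and -3.34 to 8.63 for slc5a12. Of the 10 genes nearest the summed profile, 4 were shared with a pseudocount of 2 CPM and 0 with the sum without kcnj1a.1.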
